A study of Mus musculus with 10 samples.

Results

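NF-kB is a family of transcription factors that lymphocytes hold ready in the cytoplasm and release within minutes of antigen, costimulation or cytokine. The canonical arm uses the subunits RelA, c-Rel and p50, which inhibitors of the IkB type keep inactive, whereas the non-canonical arm processes the Nfkb2 product to p52, which pairs with RelB and is known for its role in lymph node organisation. In T and B cells the antigen receptor reaches the canonical arm through the CBM complex, which holds the adaptor BCL10 and the paracaspase MALT1.

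The 9 genes described here were taken by name: the canonical subunits Rel, Rela and Nfkb1, the non-canonical subunits Relb and Nfkb2, the CBM genes Bcl10 and Malt1, and the feedback inhibitors Nfkbia (IkB alpha) and Tnfaip3 (A20, a ubiquitin-editing enzyme). They are 9 of the 33585 genes in the tables, and all 9 were among the 13334 tested, which averaged 1 FPKM or more (FPKM, the fragments of a gene scaled for its transcript length and for the size of the library).

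RNA came from whole tumor-draining lymph nodes (TDLNs) of wild-type female BALB/c mice, 6 weeks old, that carried tumors of 4T1, a BALB/c mammary carcinoma line, in a mammary fat pad. All tumors were treated by microwave ablation (MWA) on day 10, and the nodes were taken on day 15. The 5 mice of the MWA group were then injected with PBS, and the 5 mice of the MWA+2DG group with 2-deoxy-D-glucose (2DG), a glucose analogue that blocks glycolysis, at 500 mg/kg every 2 days. No untreated node was analysed here, so the comparison is of 2DG on a background of ablation. The question was whether inhibiting glycolysis after ablation changed the immune state of the node, and a whole node holds T cells, B cells, dendritic cells and stroma, all of which use NF-kB. In such bulk tissue, fewer cells of a type and less RNA per cell cannot be told apart.

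The libraries carried the markers of a lymph node, with Cd3e (T cells) between 24.2 and 38.8 FPKM and 10 B cell markers that summed to between 1506 and 1824 FPKM. Summed FPKM was between 312143 and 359984, and read depth is unknown because FPKM holds no counts. Some libraries stood apart irrespective of treatment. Principal component analysis placed replicates 1 and 2 of both groups on one side of replicates 3 to 5 along its leading axis (36.4% of the variance). In MWA replicate 5, which had the highest summed FPKM, deviations from the gene means fell with transcript length, from a median of 0.21 on the log2 scale among the shortest 2227 genes to -0.31 among the longest 2223. In the other 9 libraries these medians lay between -0.15 and 0.16. MWA replicate 4 and MWA+2DG replicate 5 had 51.1 and 86.4 FPKM of the interferon-induced chemokine Cxcl10, against at most 5.44 FPKM in the other 8 libraries.

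RefSeq promoter windows (GRCm38.p6) were at hand for 6 of the 9 genes, namely Bcl10, Nfkb2, Nfkbia, Rel, Rela and Tnfaip3. The 250 bases before the start were searched on both strands for the NF-kB consensus motif of 10 letters, and it was found in 5 of these genes, all but Rela, and in 7 of their 9 windows. Of all 32851 windows 7.25% held it. The windows of Nfkbia, Tnfaip3 and Bcl10 are shown because Tnfaip3 varied with Bcl10 and with Nfkbia across the libraries, as described further on. That of Nfkb2 is shown as the non-canonical subunit. Capitals mark the letters of the motif, and overlapping matches run together.
Nfkbia, chr12:55492648-55492897, minus strand: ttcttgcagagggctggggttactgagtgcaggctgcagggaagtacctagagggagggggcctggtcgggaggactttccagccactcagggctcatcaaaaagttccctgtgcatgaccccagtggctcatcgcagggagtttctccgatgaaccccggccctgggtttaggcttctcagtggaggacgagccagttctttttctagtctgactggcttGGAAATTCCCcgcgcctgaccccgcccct
Tnfaip3, chr10:19015411-19015660, minus strand: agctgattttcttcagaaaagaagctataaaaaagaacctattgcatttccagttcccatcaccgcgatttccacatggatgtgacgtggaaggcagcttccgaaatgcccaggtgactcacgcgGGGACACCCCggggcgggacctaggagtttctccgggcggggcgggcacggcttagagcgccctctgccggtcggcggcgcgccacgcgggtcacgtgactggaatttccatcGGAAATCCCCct
Bcl10, chr3:145924012-145924261, plus strand: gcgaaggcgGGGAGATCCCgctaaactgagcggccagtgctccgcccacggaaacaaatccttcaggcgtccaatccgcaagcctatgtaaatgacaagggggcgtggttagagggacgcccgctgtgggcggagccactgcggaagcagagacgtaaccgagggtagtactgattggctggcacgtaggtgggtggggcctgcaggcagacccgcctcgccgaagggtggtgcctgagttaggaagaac
Nfkb2, chr19:46304487-46304736, plus strand: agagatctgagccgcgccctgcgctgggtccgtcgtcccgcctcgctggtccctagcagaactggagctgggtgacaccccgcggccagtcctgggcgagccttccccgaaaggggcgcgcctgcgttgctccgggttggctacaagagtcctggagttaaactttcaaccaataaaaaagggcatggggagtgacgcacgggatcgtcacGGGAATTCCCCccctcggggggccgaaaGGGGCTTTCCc

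The matches began 29 bases before the start in Nfkbia, 125 and 12 bases in Tnfaip3, 241 bases in Bcl10, and 39 and 11 bases in the printed window of Nfkb2. In the windows of 2 other starts of Nfkb2 they began 236 and 225 bases before the start, at the far end as in Bcl10. In Rel a match began 92 bases before the start. The window of another start of Tnfaip3 held no match. A match says that the letters are present and not that the factor binds there.

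Per length of transcript, the 9 genes had steady levels in the node that spanned more than 10-fold. Nfkbia was highest, with a mean of 93.4 FPKM over the 10 libraries, followed by Nfkb2 (49.5 FPKM), Rela (40.3 FPKM), Relb (23.8 FPKM), Nfkb1 (21.6 FPKM), Rel (19.7 FPKM), Bcl10 (18.5 FPKM), Tnfaip3 (14.9 FPKM) and Malt1 (7.60 FPKM). Nfkbia, Nfkb2 and Rela each exceeded the next gene of this order in 10 of 10 libraries. Relb exceeded Nfkb1 in 9 of 10, Nfkb1 exceeded Rel in 9 of 10 libraries and Rel exceeded Bcl10 in 8 of 10, so these neighbours were not separated beyond the spread of the mice. Bcl10 exceeded Tnfaip3 and Tnfaip3 exceeded Malt1 in all 10.

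**Figure D1:**
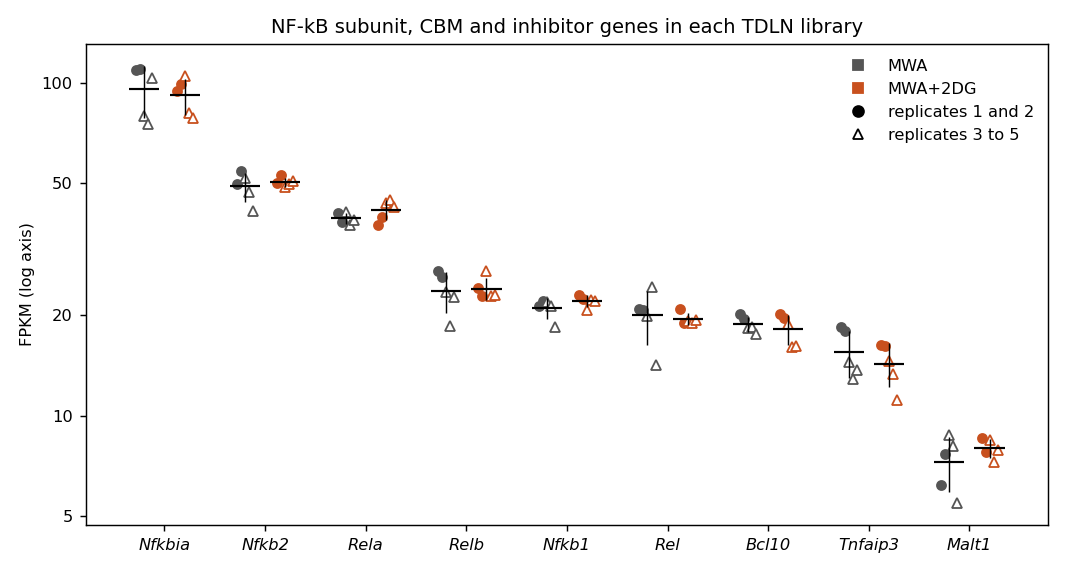
FPKM of the 9 genes (log axis) in the 5 MWA (grey) and 5 MWA+2DG (orange) libraries, in order of level. Filled circles are replicates 1 and 2, open triangles replicates 3 to 5, horizontal lines group means and vertical lines the SD. The groups overlap for every gene, while the circles of Tnfaip3 and Bcl10 lie above all triangles.

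None of the 9 genes passed the study's rule for a differentially expressed gene between the MWA+2DG and MWA groups, which is an unadjusted P below 0.05 in limma with a log2 fold change beyond 0.25. Of all tested genes 2.82% passed it, so 0 of 9 is close to that share. In limma 0 of the 13334 genes were below an adjusted p of 0.05, while 567 (4.25%) had an unadjusted P below 0.05, none of the 9 among them, and by the exact Wilcoxon rank-sum test 416 had an unadjusted P below 0.05 and 0 an adjusted one. The groups overlapped for all 9 genes, and in all tested genes 0.802% had groups that did not overlap. The log2 fold changes of the 9, on the scale of log2(FPKM + 1), ran from -0.11 for Tnfaip3 to 0.14 for Malt1 with a median of 0.033, and 5 of 9 were above 0. Over all tested genes the median was 0.0074, and 52.6% were above 0. The 95% intervals of the 9 together reached from -0.39 to 0.39. A mean change of FPKM + 1 beyond 1.31-fold in either direction therefore lay outside every one of them. Counted in FPKM alone the fold is somewhat larger, most so for the genes of low level.

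**Figure D2:**
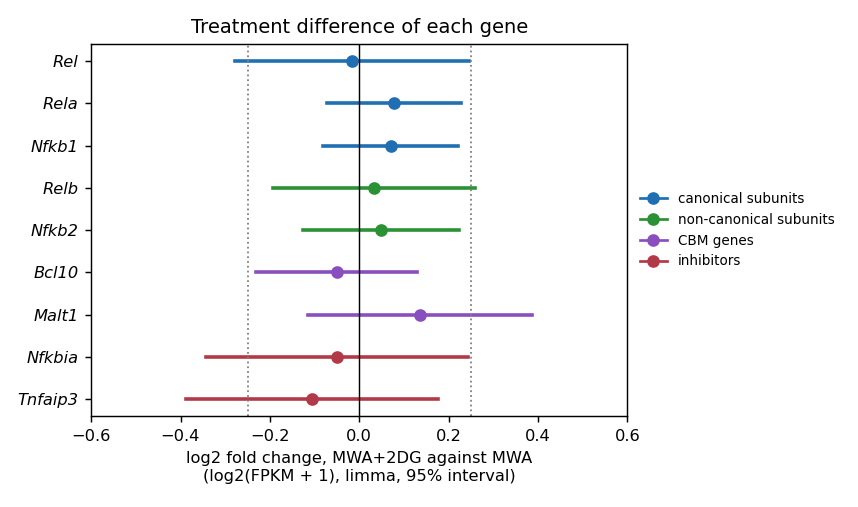
Log2 fold change of each gene, MWA+2DG against MWA, on log2(FPKM + 1) with the 95% interval of limma (5 mice against 5), coloured by role. Dotted lines mark the study's threshold of 0.25 in either direction. Every interval includes 0, and the points lie between -0.11 and 0.14.

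The canonical subunits were level between the groups. Rela encodes the transactivating subunit of the canonical dimer. It was at 40.5, 38.1, 40.9, 37.4 and 38.7 FPKM in MWA replicates 1 to 5 and at 37.4, 39.5, 43.4, 44.4 and 42.2 FPKM in MWA+2DG replicates 1 to 5. The 3 highest libraries were MWA+2DG replicates 3 to 5, and the other 2 of that group lay within the MWA range. The means were 39.1 ± 1.54 FPKM (SD, n = 5) with MWA against 41.4 ± 2.86 FPKM (SD, n = 5) with MWA+2DG, a log2 fold change of 0.077 (SE 0.068, limma adjusted p = 0.995, two-sided exact permutation p = 0.151).

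Rel encodes c-Rel, a subunit of lymphocytes that antigen receptor signals call on. Its values were 20.8, 20.7, 19.9, 24.3 and 14.2 FPKM in MWA replicates 1 to 5 and 20.8, 19.0, 19.2, 19.0 and 19.4 FPKM in MWA+2DG replicates 1 to 5. The extremes of all 10 libraries were both in the MWA group, with replicate 4 highest and replicate 5 lowest, and 4 of the MWA+2DG mice lay between 19.0 and 19.4 FPKM. Its log2 fold change was -0.017 (SE 0.12, limma adjusted p = 0.999, exact permutation p = 0.897). Without MWA replicate 5 it was -0.13 and without MWA replicate 4 it was 0.056.

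Nfkb1 encodes p105, the precursor of p50, and was at 21.3, 22.1, 22.0, 21.4 and 18.4 FPKM in the MWA mice and at 23.1, 22.4, 20.7, 22.2 and 22.0 FPKM in the MWA+2DG mice. MWA replicate 5 was again the lowest, and the other 4 MWA values lay inside the MWA+2DG range. Between the groups Nfkb1 differed by 0.070 on the log2 scale (SE 0.069, limma adjusted p = 0.995, exact permutation p = 0.222), and 0.025 without MWA replicate 5.

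The non-canonical subunits gave the same picture. Relb, which dendritic cells and stroma of the node are known to need, was at 27.2, 26.1, 23.4, 18.6 and 22.7 FPKM in MWA replicates 1 to 5 and at 24.2, 22.9, 27.2, 22.9 and 23.01 FPKM in MWA+2DG replicates 1 to 5. MWA replicate 4 was the lowest and the MWA range enclosed that of MWA+2DG. For Relb the log2 fold change was 0.033 (SE 0.10, limma adjusted p = 0.995, exact permutation p = 0.754). It turned to -0.047 when MWA replicate 4 was left out and to -0.011 when MWA+2DG replicate 3 was.

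Nfkb2, the gene of p100 and p52, was at 49.7, 54.1, 51.6, 47.1 and 41.2 FPKM in the MWA mice and at 50.0, 52.7, 48.5, 49.6 and 50.6 FPKM in the MWA+2DG mice. The MWA+2DG values lay inside the MWA range, whose lowest value was again replicate 5. For Nfkb2 the log2 fold change was 0.049 (SE 0.079, limma adjusted p = 0.995, exact permutation p = 0.595), and -0.0087 without MWA replicate 5.

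Canonical and non-canonical subunits were then set against each other within each library. The mean log2(FPKM + 1) of Relb and Nfkb2 minus that of Rel, Rela and Nfkb1 was 0.47, 0.52, 0.40, 0.14 and 0.48 in MWA replicates 1 to 5, and 0.40, 0.43, 0.47, 0.33 and 0.37 in MWA+2DG replicates 1 to 5. The group means of this difference were 0.40 ± 0.15 (SD, n = 5) and 0.40 ± 0.055 (SD, n = 5), and MWA replicate 4 lay below the other 9 libraries. The level means rested on that library: MWA+2DG minus MWA was -0.0026 with it and -0.069 without it, against an SD of 0.055 in the MWA+2DG group. The classes had mean log2 fold changes of 0.044 (canonical) and 0.041 (non-canonical), with 2 of 3 and 2 of 2 genes above 0. No test was made of this score, because the genes were chosen with results known.

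FPKM ratios of single subunits were also formed in each library. Nfkb2 stood at 2.31 ± 0.098 times Nfkb1 (SD, n = 5) with MWA and at 2.28 ± 0.077 times (SD, n = 5) with MWA+2DG. Relb to Rela was 0.603 ± 0.077 (SD, n = 5) and 0.583 ± 0.055 (SD, n = 5). Relb to Rel was 1.22 ± 0.302 (SD, n = 5) and 1.23 ± 0.104 (SD, n = 5), and it spanned 0.765 in MWA replicate 4 to 1.60 in MWA replicate 5, the whole range of the 10 libraries. MWA replicate 4 combined the highest Rel with the lowest Relb and was also a library of high Cxcl10. Its median deviations rose with transcript length, from -0.15 among the shortest genes to 0.055 among the longest, opposite to MWA replicate 5. In MWA+2DG replicate 1 they rose as well, from -0.049 to 0.16, and the ratio there was 1.16. The longest coding transcript of Rel has 7466 nucleotides and that of Relb 2209. MWA+2DG replicate 5, with more Cxcl10, had a Relb to Rel ratio of 1.18, inside the range of its group. The part of these library differences in the ratios was not tested.

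**Figure D3:**
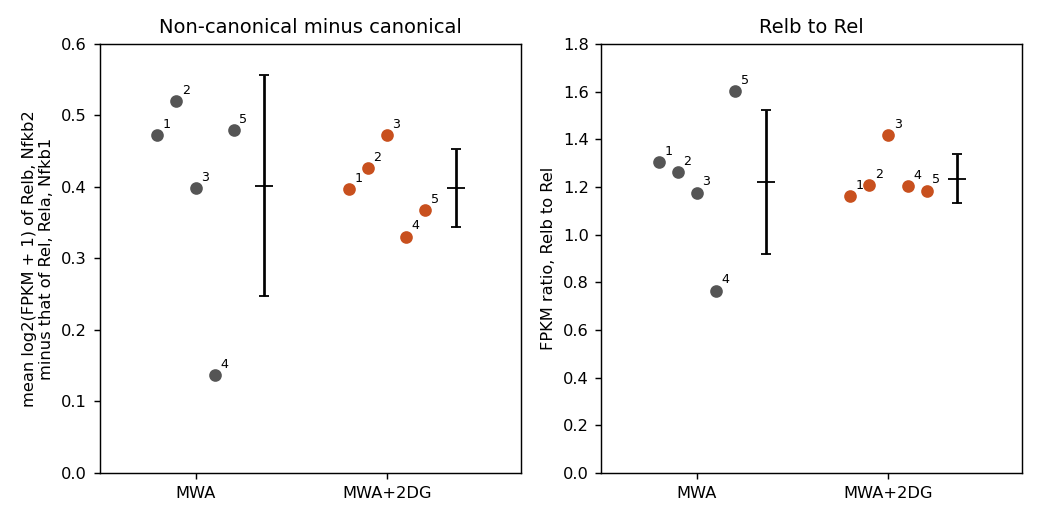
Left, mean log2(FPKM + 1) of Relb and Nfkb2 minus that of Rel, Rela and Nfkb1 per library. Right, FPKM ratio of Relb to Rel. Points are libraries labelled by replicate number, and bars to their right the mean and SD of each group (n = 5). The group means are 0.40 in both groups on the left and at 1.22 and 1.23 on the right, and MWA replicate 4 is lowest in both.

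The CBM genes did not differ beyond the spread between mice. Bcl10, the adaptor that forms filaments in the activated complex, was at 20.1, 19.4, 18.4, 18.4 and 17.6 FPKM in MWA replicates 1 to 5 and at 20.2, 19.6, 18.9, 16.1 and 16.2 FPKM in MWA+2DG replicates 1 to 5. In both groups replicates 1 and 2 were the highest. For Bcl10 the log2 fold change was -0.051 (SE 0.082, limma adjusted p = 0.995, exact permutation p = 0.508), and it was 0.0099 after rescaling each library to a total of 1000000.

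Malt1, the protease of the complex, was at 6.20, 7.68, 8.76, 8.12 and 5.46 FPKM in the MWA mice and at 8.53, 7.76, 8.41, 7.23 and 7.87 FPKM in the MWA+2DG mice. The MWA mice were the more spread, with the 2 lowest and the highest value of all 10. Of the 9 genes Malt1 had the highest log2 fold change, 0.14 (SE 0.11, limma adjusted p = 0.995, exact permutation p = 0.333). It was 0.052 without MWA replicate 5, the lowest library.

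The feedback inhibitors are NF-kB targets themselves and had the widest intervals of the 9. Nfkbia was at 109, 110.0, 79.3, 75.1 and 103 FPKM in MWA replicates 1 to 5 and at 94.3, 99.4, 104, 81.0 and 78.4 FPKM in MWA+2DG replicates 1 to 5. MWA replicates 3 and 4 and MWA+2DG replicates 4 and 5 lay at 75.1 to 81.0 FPKM, and the other 6 libraries at 94.3 FPKM or above. For Nfkbia the log2 fold change was -0.050 (SE 0.13, limma adjusted p = 0.995, exact permutation p = 0.667), and its sign turned after rescaling (0.014), after quantile normalization (0.035) and when any of MWA replicates 1 and 2 and MWA+2DG replicate 5 was left out (0.0031 to 0.0056).

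Tnfaip3 was at 18.4, 17.9, 14.5, 12.9 and 13.7 FPKM in the MWA mice and at 16.3, 16.1, 14.6, 13.3 and 11.1 FPKM in the MWA+2DG mice. MWA replicates 1 and 2 were the 2 highest libraries and MWA+2DG replicate 5 was the lowest, with the rest of both groups between them. For Tnfaip3 the log2 fold change, -0.11 (SE 0.13, limma adjusted p = 0.995, exact permutation p = 0.452), was the lowest of the 9. Leaving out MWA+2DG replicate 5 gave -0.026 and leaving out MWA replicate 4 gave -0.16. The ratio of Nfkbia to Rela, inhibitor to its main target, was 2.44 ± 0.435 (SD, n = 5) with MWA and 2.22 ± 0.352 (SD, n = 5) with MWA+2DG.

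A pattern was seen between replicate numbers. In Tnfaip3 the 4 libraries of replicates 1 and 2 lay between 16.1 and 18.4 FPKM and the 6 of replicates 3 to 5 between 11.1 and 14.6 FPKM. In Bcl10 the 4 lay between 19.4 and 20.2 FPKM and the 6 between 16.1 and 18.9 FPKM. These 2 of the 9 genes had replicate sets that did not overlap, against 9.84% of all tested genes (7.8% with the higher values in replicates 1 and 2). Nfkbia had a difference of 0.26 on the log2 scale between the sets, replicates 1 and 2 being higher, with overlapping values, next to 0.34 for Tnfaip3 and 0.17 for Bcl10. In all, 7 of 9 genes were higher on average in replicates 1 and 2, as were 70.6% of all tested genes, whose median difference was 0.085. The sets were read from these data and are not named in the labels, so no test was made.

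Other features moved with the replicate sets. The summed FPKM of 8 endothelial markers was between 536 and 881 in replicates 1 and 2 and between 217 and 422 in replicates 3 to 5. That of 10 liver genes was between 22.0 and 31.1 and between 86.0 and 201. Dendritic cell markers overlapped, at 188 to 250 and 131 to 217. The part of these features in the levels of Tnfaip3 and Bcl10 was not tested.

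Both treatments were present in equal number in each set, and the treatment difference was also read within the sets. The mean log2 difference, MWA+2DG minus MWA, was 0.21 within replicates 1 and 2 and 0.086 within replicates 3 to 5 for Malt1, 0.064 and 0.074 for Nfkb1, and -0.15 and -0.075 for Tnfaip3, so these 3 genes kept their sign. In the other 6 the sign turned between the sets, most of all in Relb, with -0.17 and 0.17, and in Nfkbia, with -0.18 and 0.036. For Rela the values were -0.030 and 0.15, for Nfkb2 -0.014 and 0.092, for Rel -0.060 and 0.012, and for Bcl10 0.0065 and -0.089.

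Across the 10 libraries 8 of the 9 genes were read as 2 loose groups, described here by Pearson's r of log2(FPKM + 1) with no test, since the replicate sets and the make-up of the node are shared by all genes. Tnfaip3 went with Bcl10 (r = 0.85, n = 10) and with Nfkbia (r = 0.77), and Nfkbia with Relb (r = 0.74). Within the 6 libraries of replicates 3 to 5 these values were 0.68, 0.51 and 0.65, and without MWA replicate 5 they were 0.85, 0.85 and 0.81. The other pairs of this group were looser, with r = 0.62 for Bcl10 and Nfkbia, 0.61 for Relb and Tnfaip3 and 0.38 for Bcl10 and Relb. Within replicates 3 to 5 these other pairs had r = 0.34, 0.39 and 0.071.

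The second group was Nfkb1, Nfkb2, Rel and Malt1. Nfkb1 and Nfkb2 had r = 0.87, Malt1 and Nfkb1 r = 0.72, Rel and Nfkb1 r = 0.70, and Malt1 and Rel r = 0.64 (n = 10). Without MWA replicate 5 these values were 0.49, 0.18, -0.17 and 0.028, and Spearman's rho over all 10 was 0.64, 0.26, 0.055 and 0.33, so the second group rested largely on that library. It held the lowest value of these 4 genes, and of 29.1% of all tested genes. Their longest coding transcripts in GENCODE M21 are 4117 (Nfkb1), 3846 (Nfkb2), 7466 (Rel) and 5331 nucleotides (Malt1), against 1578 (Nfkbia), 1949 (Bcl10) and 2209 nucleotides (Relb). Tnfaip3, of the first group, has 4422 nucleotides, more than Nfkb1 and Nfkb2, so the lengths of the groups overlapped by that gene. In MWA replicate 5 the deviation from the gene mean, on the log2 scale, was -0.44 for Rel, -0.40 for Malt1, -0.26 for Nfkb2 and -0.22 for Nfkb1. It was -0.098 for Tnfaip3, -0.061 for Bcl10, -0.058 for Relb and 0.16 for Nfkbia. Over all genes with a known length, its median in that library was 0.21 among the shortest, -0.16 from 3524 to 4938 nucleotides and -0.31 among the longest. The part of transcript length in these values was not tested. Rela went with neither group, its highest r with any of the other 8 being 0.32 (Relb) and its lowest -0.58 (Bcl10).

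**Figure D4:**
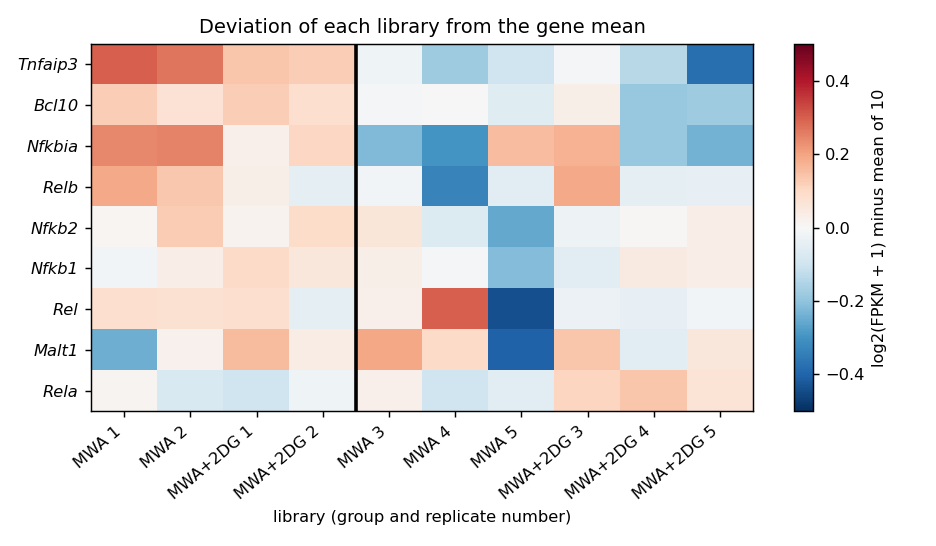
Log2(FPKM + 1) of each gene minus its mean over the 10 libraries, replicates 1 and 2 of both groups left of the black line and replicates 3 to 5 right of it. Tnfaip3 and Bcl10 are above their means in all 4 libraries on the left, and MWA replicate 5 is low in Rel (-0.44), Malt1 (-0.40), Nfkb2 (-0.26) and Nfkb1 (-0.22).

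For each gene the 2 tested genes outside the list with the highest r over the 10 libraries were also taken, as a description. They were Gm13577 and Tmem106c for Tnfaip3 (r = 0.98 and 0.98), 2410004B18Rik and Mettl23 for Nfkbia (0.98 and 0.97), Orc5 and Gm8010 for Bcl10 (0.96 and 0.94), and Gpt and Zfp707 for Relb (0.95 and 0.92). For Nfkb1 they were Numa1 and Atf7 (0.98 and 0.97), for Rel Nemp1 and Magt1 (0.96 and 0.96), for Malt1 Celsr1 and Ambra1 (0.97 and 0.95), and for Nfkb2 Mir6904 and Cep131 (0.95 and 0.95). For Rela they were Rin3 and Eif4ebp3 (0.91 and 0.88). Without MWA replicate 5 the values for Tnfaip3 and Nfkbia were between 0.98 and 0.99, and those for Nfkb2 fell to 0.85 for Mir6904 and 0.79 for Cep131. They also fell for Rel, to 0.87 for Nemp1 and 0.85 for Magt1, and for Nfkb1, to 0.90 for Numa1 and 0.86 for Atf7. For Malt1 they were 0.94 for Celsr1 and 0.88 for Ambra1, while those for Bcl10, Relb and Rela changed little.

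The rest of the pathway was read from 7 lists of 71 genes, 69 of which were tested. By the study's rule 1 was higher with 2DG and 0 were lower, where 0.952% and 1.87% of all tested genes were. The log2 fold change was above 0 in 53 of 69, with a median of 0.052, and over all tested genes it was above 0 in 52.6% with a median of 0.0074. The count of 53 was not repeated without MWA replicate 5, whose omission moved the median of all tested genes to -0.0062.

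The gene that passed was Prkcq, the T cell kinase PKC theta that acts between the antigen receptor and the CBM complex. It was at 14.2, 12.1, 9.04, 10.04 and 8.47 FPKM in MWA replicates 1 to 5 and at 17.3, 16.8, 15.0, 12.7 and 13.0 FPKM in MWA+2DG replicates 1 to 5. It was higher with 2DG by 0.45 on the log2 scale (SE 0.14, limma unadjusted P = 0.0088, adjusted p = 0.995, exact permutation p = 0.0317). MWA replicate 1 lay above 2 of the MWA+2DG mice, and the log2 difference was 0.35 within replicates 1 and 2 and 0.52 within replicates 3 to 5. The 10 T cell markers summed to 271 to 375 FPKM with MWA and 284 to 402 FPKM with MWA+2DG. Of them 3 of the 10 passed the rule as higher, where 0.952% of all tested genes did. The part of T cell content in the level of Prkcq was not tested. In the same list of genes between antigen receptor and CBM, 10 of 11 log2 fold changes were above 0, the next by P being that of Cflar, 0.16 (limma unadjusted P = 0.276). These 10 genes were all lowest in MWA replicate 5, and Tab1, the gene below 0, was highest in it. Without that library the log2 fold change was 0.038 for Cflar and 0.38 for Prkcq. The part of that library in the signs of this list was not tested.

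In the other lists no gene passed. Of the 13 genes upstream of the non-canonical arm, Lta, a ligand made by lymphocytes, averaged 23.4 ± 1.53 FPKM (SD, n = 5) with MWA against 19.7 ± 2.51 FPKM (SD, n = 5) with MWA+2DG. Its log2 fold change of -0.24 was short of the threshold (limma unadjusted P = 0.0286, adjusted p = 0.995, exact permutation p = 0.0159). Cd40lg, the T cell ligand of CD40, had 3.42 ± 0.807 FPKM (SD, n = 5) with MWA against 4.57 ± 1.21 FPKM (SD, n = 5) with MWA+2DG, and a log2 fold change of 0.33 (limma unadjusted P = 0.0649, adjusted p = 0.995). Map3k14, the kinase NIK at the head of the arm, had a log2 fold change of 0.089 (SE 0.075).

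Of the 6 genes of the IKK complex and of LUBAC, the ubiquitin ligase that acts on it, Ikbkb and Rbck1 had the smallest P, with log2 fold changes of 0.15 and 0.094 (limma unadjusted P = 0.169 and 0.178). All 5 other IkB genes were above 0, led by Nfkbiz at 0.19 and Nfkbid at 0.19 (limma unadjusted P = 0.111 and 0.115). Among 11 deubiquitinases, partners of A20 and MALT1 substrates, Zc3h12a (the RNase Regnase-1) and Otulin had 0.15 and -0.13 (limma unadjusted P = 0.261 and 0.272). Card9 and Card10, scaffolds of other cells, had 0.063 and 0.072, with group means of 1.18 to 2.67 FPKM, and Card14 was too low to be tested.

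Of 22 known NF-kB target genes 21 were tested, 11 of them with a log2 fold change above 0 and a median of 0.025. Cd83, an activation marker of B cells and dendritic cells, was at 156, 145, 136, 113 and 172 FPKM in MWA replicates 1 to 5 and at 107, 144, 120.0, 114 and 66.1 FPKM in MWA+2DG replicates 1 to 5. Its groups overlapped, and the log2 fold change of -0.42 missed the threshold of 0.05 (SE 0.19, limma unadjusted P = 0.0508, adjusted p = 0.995, exact permutation p = 0.0794). It passed the rule when MWA replicate 4 or MWA+2DG replicate 2 was left out (-0.50 and -0.52), and was -0.24 when MWA+2DG replicate 5 was. Ier3, an early response gene, had 0.23 (limma unadjusted P = 0.11).

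**Figure D5:**
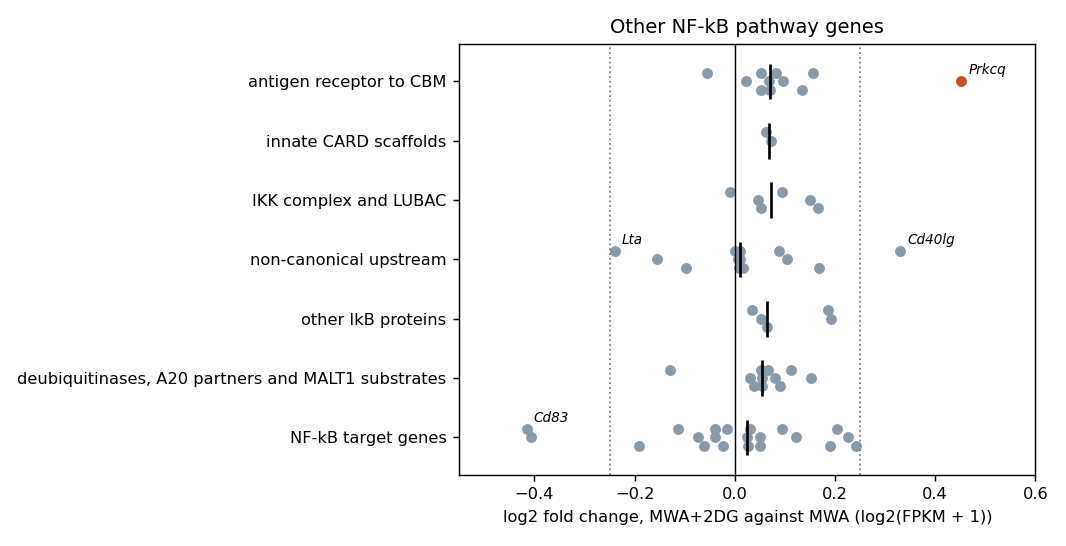
Log2 fold change, MWA+2DG against MWA, of the 69 tested genes of 7 NF-kB pathway lists, on log2(FPKM + 1). Each point is a gene, black bars are list medians, dotted lines mark 0.25 in either direction and orange marks the gene that passed the study's rule. Only Prkcq did, at 0.45, and the list medians lie between 0.010 and 0.073.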

How the data were processed

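Bulk RNA-seq of TDLNs was deposited as 10 tables, 1 per mouse, 5 per group. Reads were quality-checked by the authors in fastp and aligned in HISAT2. The authors then computed FPKM per gene with StringTie and ballgown, and deposited these FPKM values. The submitters' processing notes also name cutadapt 1.9, HISAT2 2.0.4, UMI-tools, StringTie 1.3.4d and the build mm9; promoters shown here are from GRCm38.p6 and no coordinate was converted. FPKM holds no counts, so depth is unknown and no counting error is given. Its division by length assumes even coverage, which unequal RNA quality disturbs.

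Of 33643 identifiers 33541 matched a symbol; 57 symbols with several identifiers were summed. limma 3.58.1 (R 4.3.3) was fitted to log2(FPKM + 1) of genes that averaged 1 FPKM or more, without covariates, with Benjamini-Hochberg adjustment over all tested genes. A fold change on this scale understates that of low genes. The study names limma, P below 0.05 and a log fold change beyond 0.25; log base, pseudocount and filter were chosen here. Single genes were compared by two-sided exact permutation, whose smallest p for 5 against 5 is 0.00794. On simulated data, 174 of 200 genes changed by 1 on the log2 scale among 13334 were recovered, with 7 false calls. At most 0.000178 of nonzero values were equal between 2 libraries. The libraries of a group were taken as separate mice; the labels do not say whether nodes were pooled.

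The genes described, the pathway and marker lists and the tests were chosen with earlier results of these data known. Named were the 9 genes, pathway genes that passed the rule or otherwise the 2 of smallest P in each list, the 2 genes of highest r with each of the 9, and the marker sums with Cd3e and Mki67. Map3k14, Cxcl10 and Card14 were named after their values were seen. Some items are not reported here. Alternatives were limma-trend, the Wilcoxon rank-sum test, 3 other scalings (median ratio, quantile, a total of 1000000), a filter of 5 FPKM or none, 0.1 as the pseudocount, a replicate block, a term for the replicate sets, and leaving out each library. Correlations without MWA replicate 5 and within replicates 3 to 5, values by replicate set, transcript lengths and the count of passing pathway genes under the alternatives were added after seeing the data.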

Additional observations from a re-analysis of the deposited data

Results flagged for a closer look

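In 32 groups of 5 libraries (9 genes and 7 combinations of them, in both treatment groups), 4 had an end value whose gap to its neighbour exceeded 0.71 of the group's range, where chance flags about 1 in 20 groups, and the combinations share genes with each other. Nfkb1 in MWA replicate 5, at 18.39 FPKM, lay below the other 4 MWA mice, which began at 21.3 FPKM. The mean log2(FPKM + 1) of the canonical subunits was likewise lowest in that library, at 4.504. Rel in MWA+2DG replicate 1, at 20.84 FPKM, exceeded the rest of the MWA+2DG group, whose highest value was 19.4 FPKM. The FPKM ratio of Relb to Rel was highest in its group in MWA+2DG replicate 3, at 1.418.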

How the results depend on the processing

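Of the 180 values of the 9 genes under 20 alternatives, 167 kept their direction, 13 turned it, and none passed the study's rule. The smallest unadjusted P in limma was 0.1 and the smallest adjusted p 0.862. The changes of filter, limma-trend, the rank-sum test, the replicate block and the set term leave these fold changes as they are. Directions could turn only with another scaling or pseudocount or with a library left out, so much of the count of 167 was fixed in advance. After rescaling to 1000000 the log2 fold changes of Bcl10, Rel and Nfkbia turned to 0.0099, 0.046 and 0.014, and after quantile normalization that of Nfkbia to 0.035; the cause was not tested. With single libraries left out, values ran from -0.13 to 0.056 for Rel, -0.047 to 0.084 for Relb, -0.0087 to 0.088 for Nfkb2 and -0.13 to 0.0056 for Nfkbia. Leaving out MWA replicate 4 gave 0.056 for Rel. The difference between groups in non-canonical minus canonical subunits was -0.0026 and ran from -0.069 (without MWA replicate 4) to 0.027 (without MWA replicate 2).

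Over all genes 376 passed the study's rule (127 higher, 249 lower), and 283 to 512 with single libraries left out. The count was 230 with a filter of 5 FPKM, which tests fewer genes, and 210 with the Wilcoxon rank-sum test. Rescaling to 1000000 gave 328 higher and 159 lower, and leaving out MWA+2DG replicate 5 gave 222 higher and 176 lower. The count at an adjusted p below 0.05 was 0 to 1 with single libraries left out, the 1 being Ighv1-26, named after its values were seen, without MWA replicate 2. Same-numbered mice correlated between 0.033 and 0.50 in their deviations from the group means, and 3 of 10 libraries correlated best with their own number, so the numbers do not pair them; with the replicate block 449 genes passed the rule and no call among the 9 genes changed. Prkcq passed under all 20 alternatives. The number of passing pathway genes was 1 to 3 with single libraries left out. Cd40lg joined it after rescaling, with the replicate block, without MWA replicate 1 or 3 and without MWA+2DG replicate 5. Lta joined without MWA replicate 5 and without MWA+2DG replicate 2 or 4. Cd83 joined also after median ratio scaling and with the term for the replicate sets, and Ier3 without MWA replicate 2. With 5 mice a group, differences smaller than the intervals given were not detectable, and FPKM hides the reads behind each value.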

Other observations

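Marker lists of node and other cells were summed per library as context, in FPKM. B cell markers ran from 1622 to 1824 with MWA and from 1506 to 1748 with MWA+2DG, plasma cell markers from 308 to 818 and from 229 to 498, and macrophage markers from 198 to 295 and from 176 to 240.0. Of the tested genes 2 of 6 plasma cell markers and 1 of 9 macrophage markers passed the study's rule as lower, and 0 of 10 B cell markers passed it. Of all tested genes 1.87% passed it as lower, and none had an adjusted p below 0.05 in limma. Neutrophil markers ran from 25.2 to 82.1 and from 13.9 to 26.9, and MWA replicate 1 held the 82.1. Of these markers 2 of 7 were below 1 FPKM on average, and 2 of the 5 tested passed the study's rule as lower. Stromal markers ran from 60.5 to 100.5 and from 70.8 to 96.8, endothelial markers from 322 to 736 and from 217 to 881, and dendritic cell markers from 131 to 250 and from 172 to 217. Markers of dividing cells ran from 126 to 174 with MWA and from 87.7 to 141 with MWA+2DG. Of these markers 5 of 8 passed the study's rule as lower, against 1.87% of all tested genes. Mki67, which did not pass, averaged 33.1 ± 9.06 FPKM (SD, n = 5) with MWA against 26.9 ± 5.20 FPKM (SD, n = 5) with MWA+2DG. Immediate early genes, which rise when tissue is handled, ran from 127 to 147 and from 126 to 168, with 0 of 8 tested genes passing the rule. Liver genes ran from 22.0 to 201 and from 23.2 to 152, and epithelial markers, which 4T1 cells share, from 2.34 to 6.28 and from 2.28 to 13.1.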
